A study of Mus musculus with 686 samples.

Results

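Brown adipose tissue (BAT) was set against 2 white depots, gonadal (GAT) and subcutaneous (SCAT) adipose tissue, by small RNA sequencing of mice that stayed on the ground. The comparison took every ground library of these 3 tissues whose labels read LAR, the Live Animal Return timeline, which gave 60 of the 686 libraries of the series, 20 per tissue, and its directions were followed in the 60 ground libraries of the same tissues labelled TERM. All were female BALB/cAnNTac mice with no transgene and no drug treatment under study. The habitat ground controls (HGC) lived in flight hardware at flight-like crowding, temperature, humidity and carbon dioxide, and the vivarium ground controls (VGC) lived under standard housing. Each combination of tissue, arm and timeline held 10 libraries, 5 from mice aged 3 months and 5 from mice aged 8 months. Within a timeline, the same 20 mice, 10 per arm, gave all 3 tissues. The tissues of LAR mice were frozen within minutes of death. TERM mice were killed earlier in the mission timeline, the carcasses were frozen whole, and the fat was dissected after thawing, so timeline and tissue handling cannot be told apart between LAR and TERM.

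Brown adipocytes hold many small lipid droplets and many mitochondria and burn fuel to make heat through the uncoupling protein UCP1, whereas white adipocytes store triglyceride in a single large droplet. Brown adipocytes of the main depots come from precursors that also give rise to skeletal muscle, and gonadal, subcutaneous and brown depots keep different positional programmes of Hox genes. MicroRNAs (miRNAs) are short RNAs that pair through their seed, bases 2 to 8, with target mRNAs and lower their output. The miR-193b/365 cluster is known from brown adipocyte culture, miR-378 shares its gene with the mitochondrial co-activator PGC-1 beta, and miR-196a is encoded within Hox clusters and has been linked to the browning of white fat.

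The mature sequences that carry the comparison are given 5′ to 3′ from RefSeq GRCm38.p6, with the seed in capitals. The files were made on GRCm39, so the positions below are those of RefSeq GRCm38.p6 only. Of the 33 miRNAs named by rule, 31 had an entry, and miR-378a-3p and miR-378a-5p are given by name only. The first set, shown because all its 5p arms were higher in BAT, is the cluster of miR-183, miR-96 and miR-182, which spans 3820 bp of the minus strand at chr6:30165918-30169737 outside annotated genes.
miR-183-5p: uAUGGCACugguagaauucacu
miR-96-5p: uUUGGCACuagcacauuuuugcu
miR-182-5p: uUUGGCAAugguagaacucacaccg
The next pair is shown because it defines the brown fat label and its members behaved differently. The pair of hairpins spans 4404 bp on the plus strand at chr16:13449523-13453926, opposite to an intron of the antisense gene Gm15738, and the identical miR-365-3p is also made at chr11:79726467-79726488, outside annotated genes.
miR-193b-3p: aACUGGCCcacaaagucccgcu
miR-365-3p: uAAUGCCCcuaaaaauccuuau
Another set shows 2 miRNAs of an intron of Nfyc (minus strand, chr4:120769534-120772697) and a miRNA opposite to an intron of Aatk (plus strand, chr11:120014780-120014801), all higher in BAT.
miR-30c-1-3p: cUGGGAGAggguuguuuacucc
miR-30e-3p: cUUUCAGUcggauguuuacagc
miR-3065-5p: uCAACAAAaucacugaugcugg
The following pair shares its seed, differs by 1 base, G22C with positions counted from 1 at the 5′ end of miR-103-3p, and moved in opposite directions when scaled to the miRNA total, though not on every scale. miR-103-3p lies in introns of Pank2 (chr2:131288103-131288125, plus strand) and Pank3 (chr11:35782447-35782469, plus strand), and miR-107-3p in an intron of Pank1 (chr19:34820700-34820722, minus strand).
miR-103-3p: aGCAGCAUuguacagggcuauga
miR-107-3p: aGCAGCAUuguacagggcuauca
The last set was lower in BAT. miR-196a-5p is made at chr11:96265187-96265208 and in an intron of Hoxc5 at chr15:102973365-102973386, and miR-196b-5p, which differs from it by A12C, in an exon of Hoxa9 at chr6:52230129-52230150 on the minus strand. miR-130a-3p lies at chr2:84741116-84741137 on the minus strand, outside annotated genes, and miR-1247-5p in an exon of Dio3os at chr12:110278094-110278115 on the minus strand.
miR-196a-5p: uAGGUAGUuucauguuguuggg
miR-196b-5p: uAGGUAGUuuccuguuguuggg
miR-130a-3p: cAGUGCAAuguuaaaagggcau
miR-1247-5p: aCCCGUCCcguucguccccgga

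Not every library carried the profile of its labelled tissue. When each library was correlated over 730 miRNAs with the median profile of the 13 tissues, 4 of the 20 BAT, 4 of the 20 GAT and 6 of the 20 SCAT LAR libraries resembled another tissue most. Of these 14, 10 resembled a tissue that is not fat (brain, pancreas, thymus, liver, diaphragm or spleen), and all 10 lay in 11 sequencing pools that held 5 libraries of each fat tissue. Outside the pools, 1 GAT library resembled BAT and 2 SCAT libraries resembled GAT. In TERM the pools held 9 BAT, 2 GAT and 4 SCAT libraries, and 10 of these resembled a tissue that is not fat. Each result was therefore computed with all libraries and without the pools, which left 15 libraries per tissue in LAR and 11 BAT, 18 GAT and 16 SCAT libraries in TERM. The miRNA total of a LAR library ranged from 1.09 to 8.68 M counts in BAT, 0.594 to 5.4 M in GAT and 0.554 to 4.14 M in SCAT. Levels are given in rpm, counts per 1000000 of the library's own class total. Differences are log2 BAT over the mean of GAT and SCAT with the standard error, n = 20 BAT and 40 white libraries, and p-values come from edgeR's quasi-likelihood test, adjusted by Benjamini-Hochberg over the 1044 miRNAs tested. On this scale the median miRNA stood at -0.25, so a difference of 0 is above the median. In bulk tissue, fewer cells of a type and less RNA per cell cannot be told apart.

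At an adjusted p of 0.05, 335 of the 1044 miRNAs (32.1%) were called in LAR, 108 higher (10.3%) and 227 lower (21.7%) in BAT. This split depended on the scale: 187 were higher (17.9%) and 121 lower (11.6%, 29.5% in all) with TMM factors, 154 and 108 with DESeq2 size factors, and 691 (66.2%) and 15 (1.44%, 67.6% in all) when libraries were scaled to the total of all 7 RNA classes, where the median miRNA stood at 1.20. Without the pools, 336 of 967 (34.7%) were called, 81 higher (8.38%) and 255 lower (26.4%). Called here means past that threshold, and the direction of each miRNA below is relative to the miRNA total unless another scale is named.

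The miRNAs known from brown adipocytes rose in part. Of the 14 listed, 6 were higher (10.3% of all miRNAs) and 1 was lower (21.7% of all) in BAT, with a median of 0.40 against -0.25 over all miRNAs. The 6 were miR-193b-3p, both arms of miR-378a, both arms of miR-455 and miR-182-5p. Without the pools 8 were higher (8.38% of all) and 1 lower (26.4% of all), with a median of 0.52 against -0.33.

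The strongest of the label's markers was miR-193b-3p, which promotes brown adipocyte differentiation in culture. It was present at a median of 2179 rpm in BAT (375 to 6434), 799 rpm in GAT (5.25 to 3421) and 778 rpm in SCAT (72.2 to 1621). The groups overlapped, and the 3 lowest BAT libraries, at 375 to 464 rpm, were all in the pools. In 13 of the 20 mice BAT lay above both white depots and in 3 below both. It was higher in BAT by 1.38 ± 0.33 (adjusted p = 9.36e-04), a 2.60-fold difference, and by 1.51 ± 0.26 without the pools (adjusted p = 9.3e-06), where BAT was above both depots in 6 of the 8 mice that kept all 3 tissues and below both in 0. It was higher against GAT (1.13, adjusted p = 0.0252) and against SCAT (1.63, adjusted p = 0.00228).

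Its cluster partner miR-365-3p did not follow it. Medians were 7462 rpm in BAT (2130 to 18680), 7810 rpm in GAT (337 to 27960) and 4404 rpm in SCAT (244 to 11550), so BAT and GAT lay at like medians and SCAT below. BAT was above both depots in 7 mice and below both in 4. The difference was 0.40 ± 0.29 (adjusted p = 0.304) against both depots, -0.11 (adjusted p = 0.856) against GAT and 0.92 ± 0.34 (adjusted p = 0.0432) against SCAT. It passed the threshold without the pools (0.54 ± 0.22, adjusted p = 0.046) and with TMM scaling (0.81, adjusted p = 0.0244). As a label check, miR-193b-3p was higher on average in BAT than in each depot, and miR-365-3p than in SCAT only. Neither set single BAT libraries apart from all white ones. The 5p arm of the second copy, miR-365-2-5p, was lower in BAT at medians of 7.88, 55.1 and 12.6 rpm (-1.88 ± 0.36, adjusted p = 5.2e-05), although not when scaled to the 7 classes (-0.16, adjusted p = 0.713). Differences for miR-193b-5p (0.40), miR-365-1-5p (0.24), miR-193a-3p (0.14), which carries the seed of miR-193b-3p, and miR-193a-5p (-0.44) did not pass the threshold.

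The most abundant member of the list was miR-378a-3p, which acts on mitochondrial and lipid metabolism. Its median was 211200 rpm in BAT (68660 to 346100), 80720 rpm in GAT (20450 to 332500) and 69980 rpm in SCAT (30420 to 242500). BAT lay above both depots in 16 mice and below both in 1, with overlap at the edges. The difference was 1.23 ± 0.21 (adjusted p = 6.0e-06), or 2.35-fold, and its passenger arm miR-378a-5p rose by 1.64 ± 0.25 (adjusted p = 9.3e-07). Weaker rises were those of miR-455-3p (0.65 ± 0.21, adjusted p = 0.0136) and miR-455-5p (1.00 ± 0.35, adjusted p = 0.0242), a pair induced by cold in brown fat, and neither passed against SCAT alone. miR-203-3p (0.07) and miR-32-5p (0.14) did not pass, and miR-32-5p passed without the pools (0.50, adjusted p = 0.0393).

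**Figure D1:**
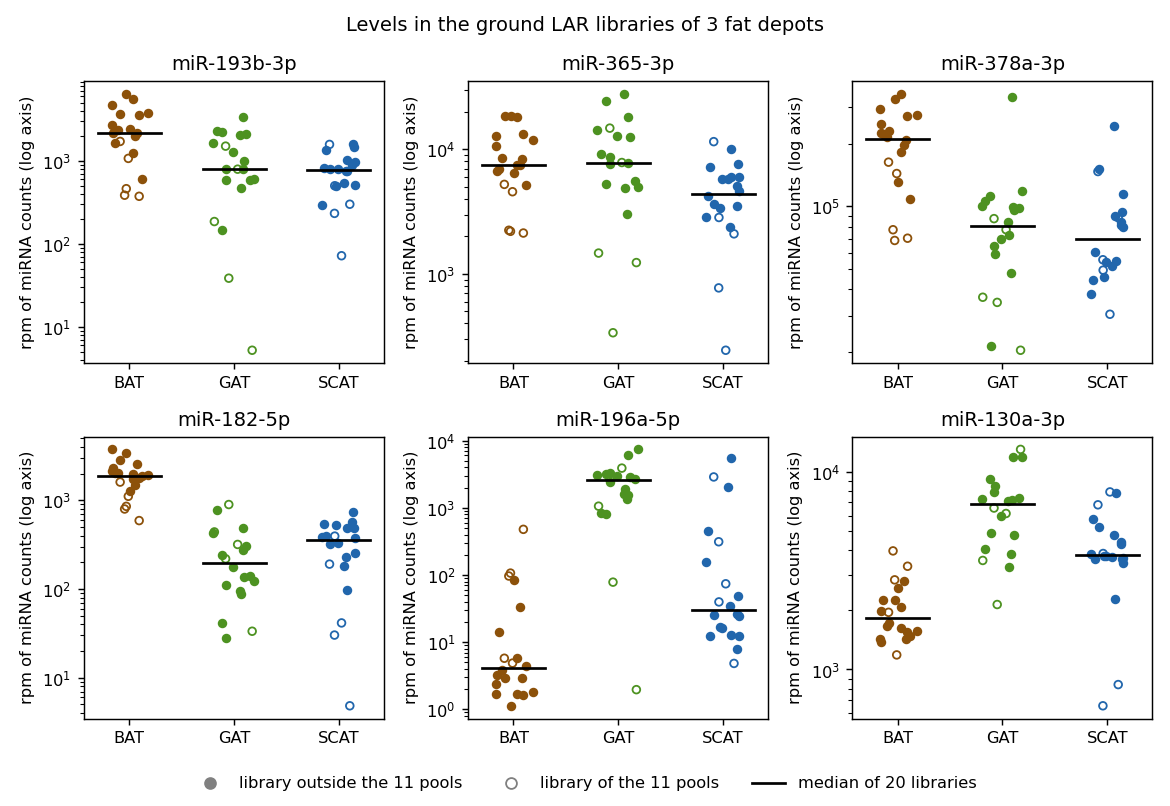
Level of 6 miRNAs in rpm of the library's miRNA total (log axis) in each LAR library of BAT, GAT and SCAT, with filled points for libraries outside the 11 pools, open points for libraries in them and a line at the median of 20. miR-182-5p and miR-196a-5p part BAT from the white depots most clearly (medians 1896 against 197 and 356 rpm, and 4.16 against 2549 and 30.1 rpm), whereas the miR-365-3p medians of BAT (7462 rpm) and GAT (7810 rpm) nearly coincide.

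The miRNAs with the smallest adjusted p among those higher in BAT, kept where the call held without the pools and the size passed 1 on the log2 scale, were led by the miR-183/96/182 cluster, best known from sensory epithelia. miR-182-5p stood at a median of 1896 rpm in BAT (590.5 to 3744), 197 rpm in GAT (28.0 to 896) and 356 rpm in SCAT (4.83 to 734). In 19 of 20 mice BAT exceeded both white depots, and in 0 it was below both. The difference was 2.67 ± 0.30 (adjusted p = 7.8e-10), or 6.36-fold, at 2.81 against GAT and 2.53 against SCAT. The other members were also higher: miR-183-5p by 2.15 ± 0.32 (adjusted p = 4.2e-07; medians 538, 47.4 and 158 rpm) and miR-96-5p by 2.21 ± 0.40 (adjusted p = 2.4e-05; medians 100.5, 5.71 and 15.7 rpm). Their rarer arms, miR-182-3p (2.81 ± 0.39) and miR-183-3p (1.65 ± 0.33), were called as well, so each of the 5 arms that passed the filter on low counts was higher in BAT.

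The relatives of miR-378a followed it. miR-378c was at a median of 14530 rpm in BAT (6023 to 25000), 5245 rpm in GAT and 5623 rpm in SCAT, with BAT above both in 18 mice, and rose by 1.43 ± 0.17 (adjusted p = 4.1e-09). miR-378b rose by 1.19 ± 0.17 (adjusted p = 3.2e-07) from medians of 196 and 268 rpm to 506 rpm. These entries are near copies of miR-378a-3p, and how reads that match several of them were shared is not given in the sources used here, so they are not independent of it.

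The pair within Nfyc, a subunit of the trimeric factor NF-Y, was higher through its 3p arms. miR-30c-1-3p lay at a median of 149 rpm in BAT (66.3 to 330), 62.7 rpm in GAT (13.5 to 118) and 60.2 rpm in SCAT (16.2 to 100.5), with BAT above both in 19 mice, and rose by 1.31 ± 0.17 (adjusted p = 4.4e-08). miR-30e-3p rose by 1.09 ± 0.15 (adjusted p = 5.7e-08), with medians of 349, 166 and 186 rpm. Of their opposite arms, miR-30e-5p rose by about as much (1.13 ± 0.19, adjusted p = 7.8e-06), and miR-30c-5p, which is also made from a further gene, by 0.47 ± 0.17 (adjusted p = 0.0292), a call lost without the pools (0.43, adjusted p = 0.0819). miR-3065-5p, at a median of 35.2 rpm in BAT (8.37 to 83.0), 9.91 rpm in GAT and 7.38 rpm in SCAT, rose by 2.07 ± 0.25 (adjusted p = 5.1e-09). The miRNA on the other strand of the same locus, miR-338, was not called in either arm (miR-338-3p 0.61, adjusted p = 0.0973; miR-338-5p -0.13, adjusted p = 0.678).

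miR-107 and miR-103, which lie in introns of genes for pantothenate kinases, the first enzymes of coenzyme A synthesis, differed between the tissues in unlike ways. miR-107-3p was at a median of 1288 rpm in BAT (897 to 2111), 758 rpm in GAT (303 to 1734) and 488 rpm in SCAT (155 to 1072), above both depots in 19 mice, and rose by 1.16 ± 0.16 (adjusted p = 5.7e-08). Its rare arm miR-107-5p rose by 2.56 ± 0.38 (adjusted p = 3.2e-07; medians 5.09, 0.162 and 0.369 rpm). miR-103-3p was at 2760 rpm in BAT (1669 to 4551), 4639 rpm in GAT (1787 to 8571) and 3790 rpm in SCAT (623 to 7348) and fell by 0.59 ± 0.18 on the log2 scale (adjusted p = 0.00801), a direction that turned to 0.94 with scaling to the 7 classes and a call that TMM did not keep (-0.23, adjusted p = 0.251).

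Because both are counted in the same library, their ratio does not depend on the scale, and it was taken after the values had been seen. The ratio of miR-107-3p to miR-103-3p had a median of 0.503 in BAT (0.295 to 0.762), 0.126 in GAT (0.0966 to 0.970) and 0.139 in SCAT (0.0780 to 0.323). BAT was above both depots in 19 of 20 mice and in 8 of 8 without the pools, where the highest GAT value was 0.323 and the highest SCAT value 0.182. The log2 difference was 1.70 (two-sided permutation test within arm, p = 1e-05, the smallest that 100000 resamples allow) and 1.97 without the pools. In TERM the medians were 0.422, 0.113 and 0.138, with BAT above both in 18 of 20 mice and a log2 difference of 1.48 (permutation p = 1e-05). Reads that end before base 22 cannot tell these miRNAs apart, and their treatment is not given in the sources used here.

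**Figure D2:**
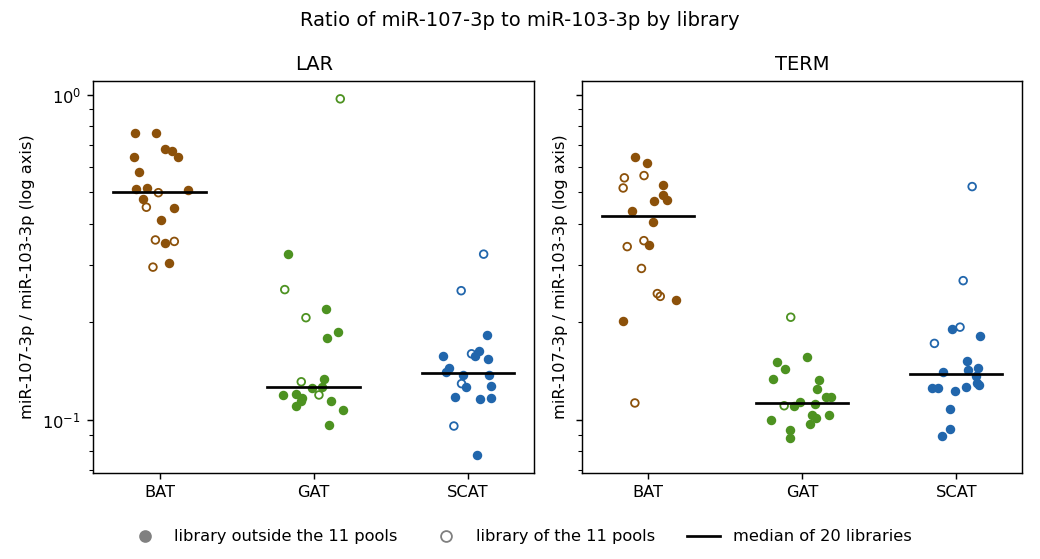
Ratio of miR-107-3p to miR-103-3p in each library of BAT, GAT and SCAT in LAR and TERM, with filled points outside the pools, open points in them and a line at the median of 20. BAT lies at medians of 0.503 (LAR) and 0.422 (TERM) and the white depots between 0.113 and 0.139, with a few libraries of each tissue in the range of the other.

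Among the 10 named miRNAs lower in BAT, the pair from the miR-196 family, encoded in Hox clusters, had the largest differences. miR-196a-5p stood at a median of 4.16 rpm in BAT (1.13 to 478), 2549 rpm in GAT (1.97 to 7391) and 30.1 rpm in SCAT (4.83 to 5486), and BAT was below both depots in 18 of 20 mice and above both in 1. The SCAT median lay between those of BAT and GAT, and the highest SCAT libraries, at 5486, 2876 and 2044 rpm, were those that resembled GAT. The difference was -5.41 ± 0.74 (adjusted p = 8.3e-08), at -7.00 against GAT and -3.82 against SCAT, and SCAT was itself below GAT (-3.18 ± 0.69, adjusted p = 0.00141). miR-196b-5p showed the same order, with medians of 39.2 rpm (8.23 to 1021), 2060 rpm (10.2 to 4485) and 210 rpm (30.0 to 3078) and a difference of -3.40 ± 0.46 (adjusted p = 6.3e-08). These 2 miRNAs differ by 1 base and both stayed lower when scaled to the 7 classes (-3.81, adjusted p = 5.8e-07, and -1.80, adjusted p = 9.1e-05).

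Of the 5 miRNAs listed for Hox loci, 4 were lower (21.7% of all miRNAs) and 0 higher (10.3% of all), with a median of -1.75 against -0.25 over all miRNAs. Beside the miR-196 pair, miR-615-3p, from an intron of Hoxc5, was lower by -1.75 ± 0.37 (adjusted p = 2.0e-04; medians 39.3, 188 and 88.5 rpm) and miR-10b-5p, from the Hoxd cluster, by -0.92 ± 0.29 (adjusted p = 0.0111). miR-10a-5p, from the Hoxb cluster, was at -0.04 (adjusted p = 0.909). With TMM 3 were lower (11.6% of all), and with scaling to the 7 classes 2 were lower (1.44% of all) and 2 higher (66.2% of all).

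Both arms of miR-130a, which represses the adipogenic receptor PPAR gamma, were lower. miR-130a-3p was at a median of 1828 rpm in BAT (1185 to 3975), 6840 rpm in GAT (2130 to 12950) and 3798 rpm in SCAT (655.5 to 7895), below both depots in 17 mice, at -1.39 ± 0.19 (adjusted p = 5.7e-08). miR-130a-5p was at -1.31 ± 0.22 (adjusted p = 5.2e-06; medians 7.23, 27.3 and 15.5 rpm). miR-1247-5p, beside the imprinted Dio3 gene, was highest in gonadal fat: 5.12 rpm in BAT (0 to 18.8), 89.2 rpm in GAT (6.73 to 358) and 5.61 rpm in SCAT (0 to 123). It was lower against GAT by -4.00 and against SCAT by -1.31 (adjusted p = 0.0265), and the second of these was lost without the pools (-0.97, adjusted p = 0.11). SCAT was below GAT by -2.69 ± 0.46 (adjusted p = 8.2e-05).

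The other lower miRNAs came from several unrelated loci. miR-574-5p was at -1.48 ± 0.23 (adjusted p = 9.3e-07; medians 160, 453 and 400 rpm) and its partner miR-574-3p at -1.41. miR-125b-1-3p was at -1.48 ± 0.23 (adjusted p = 9.3e-07; medians 34.4, 96.5 and 101 rpm), with the main arm miR-125b-5p at -1.28. miR-501-3p was at -1.53 ± 0.25 (adjusted p = 2.0e-06; medians 86.2, 269 and 208 rpm), and of its X-chromosomal neighbours miR-532-3p (-1.53), miR-362-3p (-1.25) and miR-500-3p (-0.95) were called as well, miR-362-3p not without the pools (-0.50, adjusted p = 0.149), while miR-188-5p (-0.54) and miR-362-5p (-0.29) were not. Their own 5p partners miR-501-5p (-0.34) and miR-500-5p (0.24) did not pass. The rare miR-5128 (-2.61 ± 0.37; medians 2.59, 37.9 and 11.7 rpm) and miR-7653-5p (-2.57 ± 0.40; medians 0.517, 3.41 and 1.69 rpm) completed the 10 named.

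Of the 10 named lower miRNAs, 5 kept their call when libraries were scaled to the 7 classes: miR-196a-5p, miR-196b-5p, miR-5128, miR-7653-5p and miR-1247-5p. On that scale miR-130a-3p was at -0.02, and miR-130a-5p (0.22), miR-574-5p (0.13), miR-125b-1-3p (0.09) and miR-501-3p (0.03) turned to the other sign without passing, all below the median of 1.20. With TMM each of the 10 stayed lower. The 10 named higher miRNAs were called higher with TMM, with DESeq2 and with scaling to the 7 classes.

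The 2 white depots were then taken singly. Against GAT 32.3% of the miRNAs were called (88 higher, 8.43%, and 249 lower, 23.9%) and against SCAT 23.7% (103 higher, 9.87%, and 144 lower, 13.8%). Of those higher, 58 were shared, 65.91% of the GAT list and 56.31% of the SCAT list, and of those lower 106 were shared, 42.57% and 73.61%. Without the pools 35 higher ones were shared (43.21% and 58.33%) and 126 lower ones (44.37% and 75.45%). Both comparisons use the same BAT libraries. All 20 named miRNAs were called against each depot, and 9 of the 10 lower ones, but 5 of the 10 higher ones, had the larger difference against GAT. The named miRNAs were picked by the contrast with both depots in the same libraries, so their calls against each depot were largely fixed by that choice. SCAT and GAT differed from each other in 72 miRNAs (6.9%), 24 higher and 48 lower in SCAT, and in 112 of 967 without the pools, 42 higher and 70 lower. Without the pools, 37.7% were called against GAT (8.38% higher and 29.4% lower) and 23.5% against SCAT (6.2% higher and 17.3% lower), and 19 of the 20 named were called against SCAT, the exception being miR-1247-5p.

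**Figure D3:**
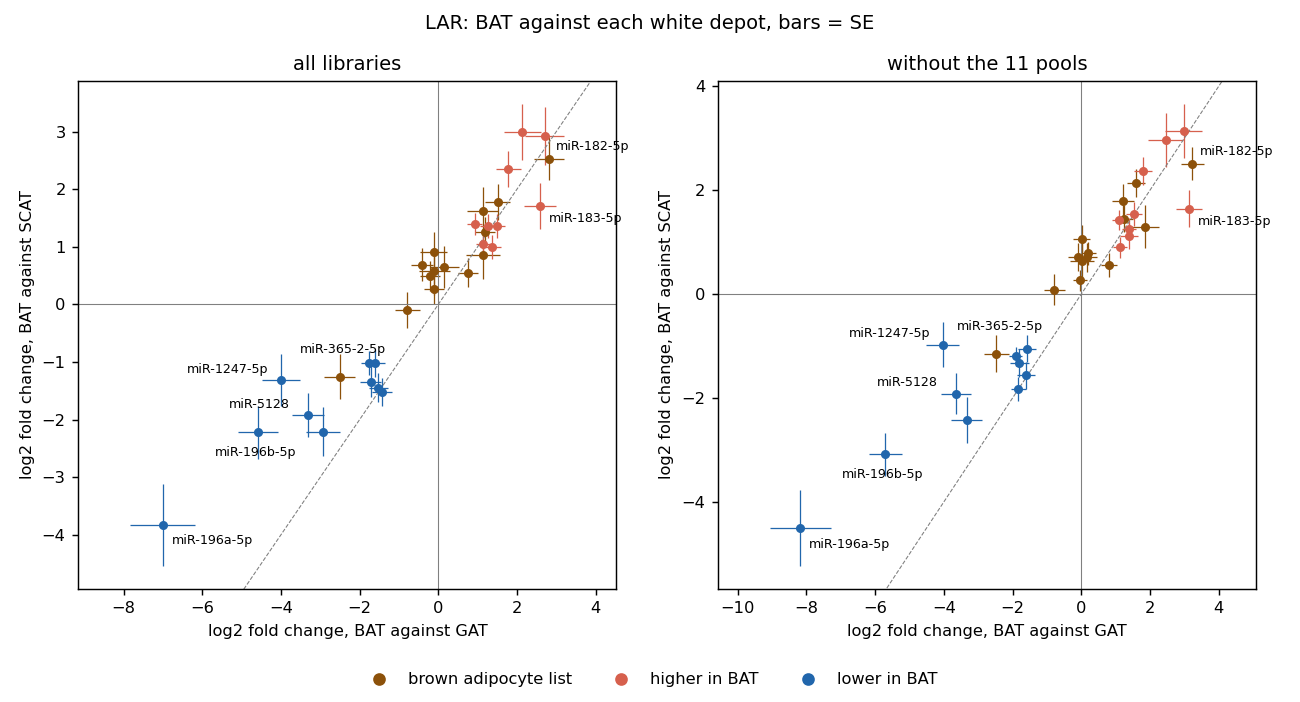
Log2 difference of BAT against GAT (horizontal axis) and against SCAT (vertical axis) for the brown adipocyte list and the named higher and lower miRNAs in LAR, with standard errors as bars and a dashed line of equality, with all libraries (left) and without the pools (right). The cluster miRNAs miR-182-5p (2.81 and 2.53) and miR-183-5p (2.59 and 1.71) lie high on both axes, and miR-196a-5p (-7.00 and -3.82) and miR-1247-5p (-4.00 and -1.31) lie further from 0 against GAT.

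The contrast was also taken within each kind of housing. Within HGC alone 185 miRNAs (17.7%) were called, 7.66% higher and 10.1% lower, and within VGC alone 197 (18.9%), 5.75% higher and 13.1% lower. The split in HGC changed when the pools were left out, with 80 higher and 105 lower with all libraries and 32 and 196 of 967 without them, against 60 and 137 and then 57 and 108 in VGC. With and without the pools the 20 named miRNAs were called in the same direction in each arm. These 20 were picked by the contrast over both arms of the same libraries, so this outcome was largely fixed by the choice. The difference between the arms passed for 6 of 1044 miRNAs (0.575%, and 113 at an unadjusted p of 0.05) and for 0 of 967 by edgeR without the pools (121 unadjusted). miR-193b-3p differed by 1.58 in HGC and 1.17 in VGC (adjusted p = 0.908 for the difference between arms, adjusted p = 0.0723 for VGC alone), miR-182-5p by 0.31 more in HGC (adjusted p = 0.921). Between mice of 3 and 8 months the contrast differed for 0 miRNAs by edgeR (123 unadjusted of 1044, and 70 of 967 without the pools). A miss of the threshold does not show that the arms or ages were alike.

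The same contrast in TERM kept most directions. There 250 of 1059 miRNAs (23.6%) were called, 123 higher (11.6%) and 127 lower (12.0%), around a median of -0.06. Of the 108 miRNAs higher in LAR, 102 were tested in TERM and 99 of these had the same sign (97.06%, against 46.08% positive over all miRNAs), 97 of them in both arms. Of these, 70 were called. Of the 227 lower in LAR, 212 were tested, 197 had the same sign (92.92%, against 53.92% negative over all), 174 in both arms, and 97 were called. No call went the opposite way. Without the pools 303 of 902 (33.6%) were called, 56 higher (6.21%) and 247 lower (27.4%), and the shares with the same sign were 83.33% of the higher (23.84% over all) and 97.07% of the lower (76.16% over all).

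All 10 named higher miRNAs were called in TERM too. miR-182-5p was at a median of 1246 rpm in BAT (9.55 to 2354), 117 rpm in GAT and 365 rpm in SCAT, at 2.19 ± 0.27 (adjusted p = 3.9e-08). miR-378a-3p was at 1.16 (adjusted p = 0.00114), miR-107-3p at 0.89 (adjusted p = 4.9e-06) and miR-3065-5p at 1.78 (adjusted p = 9.2e-05). miR-193b-3p, with medians of 1512 rpm (18.4 to 4794), 892 rpm (238 to 3275) and 701 rpm (43.7 to 1590), was at 0.80 ± 0.32 and missed the threshold (adjusted p = 0.0573), and passed without the pools (1.12, adjusted p = 2.0e-04) and with TMM (1.14, adjusted p = 0.00615). miR-365-3p was at 0.21 (adjusted p = 0.63), with medians of 6104, 7293 and 3224 rpm.

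Of the 10 lower miRNAs, 7 were called in TERM, and the miR-196 family was the main exception. miR-196a-5p stood at 0.06 ± 0.61 (adjusted p = 0.97) although its medians were 7.34 rpm in BAT (0.654 to 3426), 2334 rpm in GAT and 18.8 rpm in SCAT. The 4 BAT libraries at 3426, 2121, 448.9 and 387.9 rpm were all in the pools, and without the pools the difference was -5.27 ± 0.44 (adjusted p = 3.6e-14). With mice as a block it was -3.78 (adjusted p = 0.0011). miR-196b-5p moved likewise from -0.46 (adjusted p = 0.485) to -2.52 without the pools (adjusted p = 3.2e-08) and -2.06 with the block (adjusted p = 0.00215), and miR-5128 from -0.74 (adjusted p = 0.0803) to -1.08 (adjusted p = 0.0078) and -0.86 (adjusted p = 0.0481). The difference between LAR and TERM passed for 4 of 1131 miRNAs (0.354%) with all libraries (125 unadjusted), among them these 3, and for 2 of 1011 (0.198%) without the pools (97 unadjusted).

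**Figure D4:**
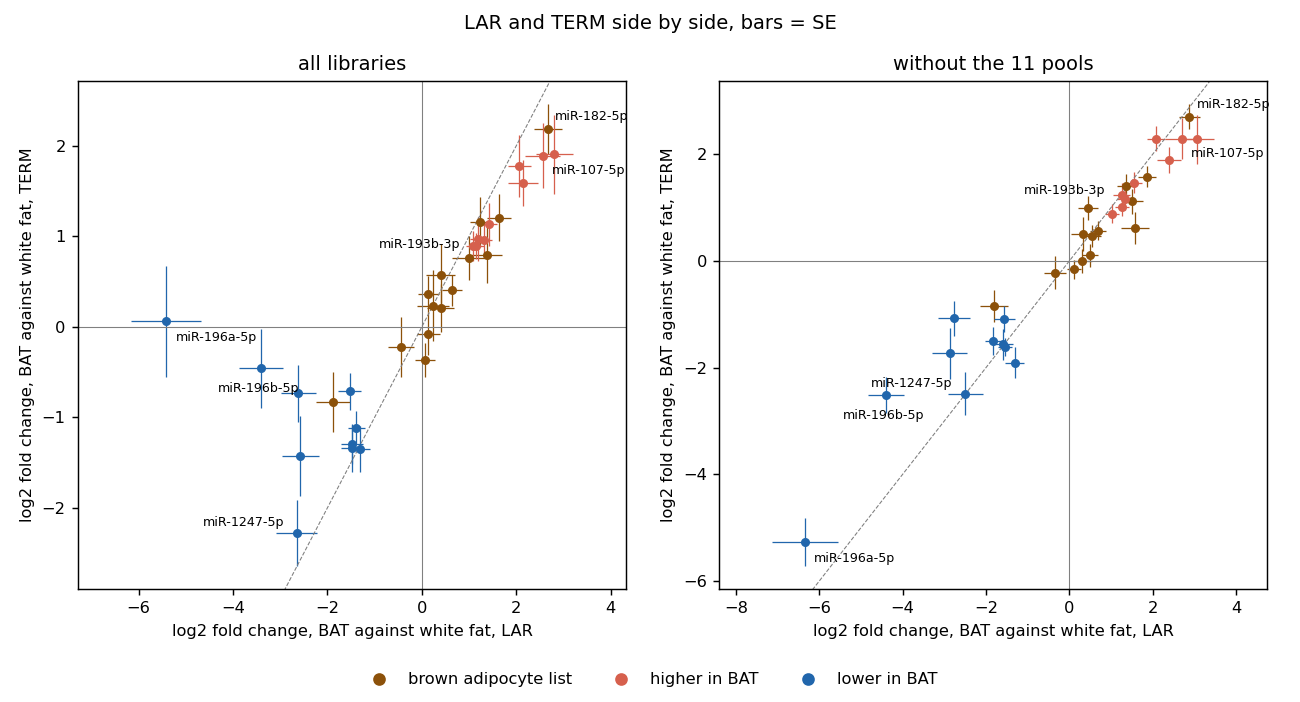
Log2 difference of BAT against GAT and SCAT in LAR (horizontal axis) and TERM (vertical axis) for the brown adipocyte list and the named miRNAs, with standard errors as bars, with all libraries (left) and without the pools (right). miR-196a-5p is at -5.41 in LAR and 0.06 in TERM with all libraries and at -6.34 and -5.27 without the pools.

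The following lists are read against 10.3% of all miRNAs higher and 21.7% lower, with a median of -0.25, and with so few members several counts lie near those shares. Of 7 miRNAs known to favour browning, 2 were higher and 1 was lower in LAR (median 0.07), with miR-26a-5p at -0.13 (adjusted p = 0.45) and miR-26b-5p at 0.07 (adjusted p = 0.871). The 3 called were miR-30c-5p and miR-129-5p, which were higher, and miR-196a-5p, which was lower. Of 9 known to restrain browning, 1 was lower, miR-125b-5p, and 0 higher (median 0.03). miR-133a-3p, which acts on the brown fat regulator PRDM16, was at 0.65 (adjusted p = 0.21) with medians of 79640 rpm in BAT, 8828 rpm in GAT and 87800 rpm in SCAT, and miR-27b-3p at 0.37 (adjusted p = 0.138). Of 8 miRNAs linked to adipocytes in general, 1 was higher, miR-107-3p, and 4 were lower (median -0.51). The 4 were miR-103-3p, miR-145a-5p (-0.86 ± 0.18, adjusted p = 1.8e-04), miR-221-3p (-0.64, adjusted p = 0.00895) and miR-222-3p (-0.67, adjusted p = 0.0057), while miR-143-3p was at -0.17 (adjusted p = 0.499). All 8 were higher with scaling to the 7 classes, as were 66.2% of all miRNAs. Of the 9 members of the let-7 family, 4 were lower (median -0.12), namely let-7b-5p (-1.10 ± 0.20, adjusted p = 2.9e-05), let-7c-5p (-0.74 ± 0.18, adjusted p = 0.00111), let-7e-5p (-0.59) and let-7i-5p (-0.46), with let-7a-5p at -0.05 and let-7f-5p at 0.19, and with TMM 1 was higher and 1 lower (17.9% and 11.6% of all miRNAs) and with scaling to the 7 classes 8 were higher (66.2% of all).

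Markers of muscle moved with the contrast. Of 7 muscle miRNAs, 4 were higher in BAT in LAR (10.3% of all miRNAs; median 1.82), 3 without the pools (8.38% of all; 0.78) and 7 in TERM (11.6% of all; 2.05). miR-1a-3p was at medians of 15750 rpm in BAT, 652 rpm in GAT and 11790 rpm in SCAT and at 1.82 ± 0.39 (adjusted p = 2.0e-04), and miR-499-5p, from an intron of a myosin gene, at 2.06 ± 0.44 (adjusted p = 2.0e-04; medians 27.1, 2.28 and 3.49 rpm). The other two called were miR-208b-3p (2.26) and miR-208a-3p (2.50), and the second of these was not called without the pools. The summed level of the list was 114000 rpm in BAT (32510 to 251200), 11040 rpm in GAT (325 to 350800) and 119500 rpm in SCAT (5042 to 624900), so it parted GAT from both other tissues rather than BAT from white fat. No member of any marker list was at 0 in all libraries of a tissue. The part of muscle RNA, or of the other cell types below, in the results above was not tested.

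Neuronal miRNAs were higher in BAT with all libraries and, except for miR-129-5p, not without the pools. Of 7, 6 were higher with all libraries (10.3% of all miRNAs; median 1.64) and 1 without the pools (8.38% of all; 0.50), in TERM 7 (11.6% of all) and then 1 of 6 (6.21% of all). miR-9-5p went from 3.72 (adjusted p = 1.3e-07) to 0.42 (adjusted p = 0.211) and miR-124-3p from 3.59 (adjusted p = 2.9e-05) to -0.49 (adjusted p = 0.488). The summed level in BAT was 300.8 rpm (123.8 to 60910, and to 663.6 without the pools), against 177.4 rpm in GAT (63.6 to 2022) and 153.9 rpm in SCAT (67.5 to 743.5). Lower calls were 21.7% of all miRNAs with all libraries and 26.4% without the pools. The 4 miRNAs of the pancreas went from 0 called (median 0.93) to 1 lower (-1.02), near that share, with miR-375-3p at 0.91 (adjusted p = 0.362) and -1.58 (adjusted p = 0.00379), and the 3 of the liver from 2 lower (-2.12) to 0, with miR-122-3p at -2.12 and miR-122-5p at -2.45 (adjusted p = 0.0326) and -2.07 (adjusted p = 0.109).

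The counts for markers of other cells are read against 10.3% of all miRNAs higher and 21.7% lower. Of 4 mesenchymal miRNAs 3 were lower (median -0.63), with miR-214-3p at -1.60 ± 0.27 (adjusted p = 5.6e-06; medians 505, 1240 and 1864 rpm) miR-199a-3p at -0.53 (adjusted p = 0.0354) and miR-199a-5p at -0.72, and miR-214-3p stood at 0.03 with scaling to the 7 classes. Of 2 endothelial miRNAs, miR-126a-3p was higher (0.65 ± 0.16, adjusted p = 0.00104), with a list median of 0.50. Of 4 erythroid miRNAs miR-486a-5p was lower (-1.38 ± 0.32, adjusted p = 5.9e-04; list median -0.17), with miR-451a at -0.11. Of 6 leukocyte miRNAs miR-223-3p was lower (-0.72, adjusted p = 0.0298, and adjusted p = 0.0949 without the pools; list median -0.79). None of 5 epithelial miRNAs was called (median -1.11), with miR-200c-3p at medians of 1025 rpm in BAT, 427 rpm in GAT and 5946 rpm in SCAT, and miR-200c-3p (-1.30) and miR-429-3p (-0.96) were lower without the pools. Of 3 miRNAs of gut and kidney epithelium miR-215-5p was lower (-1.94, adjusted p = 0.013; list median -1.14). Of 22 miRNAs of the imprinted Dlk1-Dio3 locus 2 were higher (median 0.03), miR-369-3p (1.29) and miR-770-3p (1.23), and without the pools 7 were lower and 0 higher (-0.53), where 26.4% and 8.38% of all miRNAs were, so both counts lie near the shares over all miRNAs. Of the 6 of the miR-17-92 cluster, which drives proliferation, miR-92a-3p was lower (-1.05 ± 0.23, adjusted p = 2.7e-04; list median -0.44).

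The balance of RNA classes differed between brown and white fat. miRNAs took 8.73% ± 2.65 (SD, n = 20) of the counts over the 7 classes in BAT, 2.94% ± 2.96 in GAT and 3.84% ± 1.99 in SCAT. The BAT share was above both depots in 17 of 20 mice and below both in 0 (two-sided permutation test over all libraries, without regard to arm or mouse, adjusted p = 2.33e-05). Fragments of tRNAs took 44.2% ± 11.7 in BAT, 69.7% ± 18.8 in GAT and 66.8% ± 13.7 in SCAT, below both in 17 mice (permutation adjusted p = 2.33e-05). The shares of lncRNA fragments (8.75% ± 2.30, 3.88% ± 2.65 and 4.24% ± 1.66) and snoRNAs (12.1% ± 4.92, 5.94% ± 5.14 and 7.25% ± 3.08) were above both depots in 18 mice each. rRNA (14.0%, 9.19% and 7.73%) and snRNA fragments (9.08%, 4.35% and 6.14%) were higher by 5.55 and 3.84 percentage points, and piRNA entries (3.11%, 4.02% and 4.01%) lower by 0.909 points, all past the threshold. The snRNA share of SCAT had an SD of 9.98 and a median of 3.96%, with the highest value, 48.0%, in a library of the pools. Without the pools the snRNA difference was 6.385 points. In TERM the miRNA share was again higher, by 1.98 points (permutation adjusted p = 0.0119), and the tRNA share lower by 18.2 points (permutation adjusted p = 1.75e-04), while the piRNA share was not called (permutation adjusted p = 0.07). A share that rises in 1 class lowers the others, so the 7 are not independent.

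**Figure D5:**
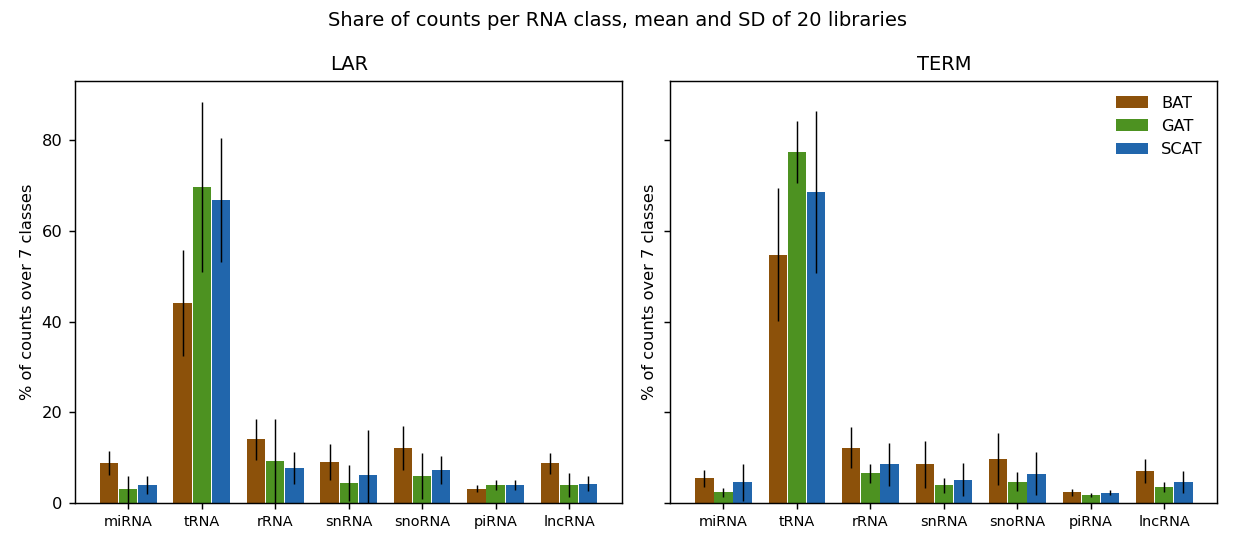
Share of counts over the 7 RNA classes in BAT, GAT and SCAT, as bars of the mean with the SD of 20 libraries, in LAR and TERM. tRNA fragments are the largest class in each tissue and lower in BAT (44.2% against 69.7% and 66.8% in LAR), and the miRNA share is highest in BAT (8.73% against 2.94% and 3.84%).

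Within the other classes, scaled each to its own total, calls depended more on the libraries and the scale. Of 407 tRNA entries 6.63% were called, 26 higher (6.39%, 13 distinct sets of values) and 1 lower (0.246%), against 73.0% without the pools. The split was 74 and 83 with TMM and 79 and 108 with DESeq2, and in TERM 185 were higher and 42 lower of 408 (135 and 131 with DESeq2). Gly tRNA fragments made up a median of 15.6% of tRNA counts in BAT, 12.0% in GAT and 10.8% in SCAT, and 17 of their 27 entries, which hold 10 distinct sets of values, were higher. Glu tRNA fragments made up 49.5%, 55.7% and 61.2%. The entry tRNA-His-GTG-3-1 stood at 79.3 rpm in BAT (23.2 to 163), 15.3 rpm in GAT (5.24 to 209) and 19.5 rpm in SCAT (6.65 to 274), above both in 17 mice, at 1.52 ± 0.33 (adjusted p = 0.00132) and 0.91 in TERM (adjusted p = 0.00984), and tRNA-Ser-GGA-1-1 at 1.16 ± 0.30 (adjusted p = 0.00639).

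Of 945 snoRNA entries 35.8% were called, 298 higher (31.5%) and 40 lower (4.23%). Many entries are copies with identical values, and the 298 hold 168 and the 40 hold 37 distinct sets of values of 783 tested. With TMM 265 were higher and 104 lower, and with DESeq2 223 and 132. In TERM, 273 of the 292 higher and 23 of the 38 lower ones tested were called in the same direction, where 39.6% of all were higher and 4.37% lower. Genes named as H/ACA snoRNAs (Snora), which guide pseudouridylation, were higher in 16 and lower in 0 of 42. Those named as C/D snoRNAs (Snord), which guide methylation, were higher in 29 and lower in 11 of 102. Both higher counts lie near the 31.5% over all entries. Without the pools 33 of 42 Snora and 34 of 102 Snord entries were higher, where 360 of 909 were over all entries. The leading entries, Gm23254 (4.59, median 53.0 rpm in BAT, 4.89 to 8015) and Gm24862 (4.58), stood at 1.72 and 1.70 without the pools. Of the lower ones named, Gm25200 (-2.47, adjusted p = 9.3e-04) was at medians of 0.165, 0.563 and 0.701 rpm and at -1.06 in TERM (adjusted p = 0.143), and Gm22797 (-2.77) had medians of 0 and was not tested in TERM. Of 829 snRNA entries 11.2% were called, 18 higher (2.17%) and 75 lower (9.05%). The higher ones were led by Gm24848 (2.60, adjusted p = 1.6e-05, medians 2.20, 0.152 and 0 rpm) and Gm25898 (2.81, adjusted p = 4.6e-05, medians 0.572, 0 and 0 rpm). In TERM Gm24848 was at 1.03 and not called (adjusted p = 0.066), and Gm25898 was at 1.94 (adjusted p = 0.00231). Gm26254 (-1.58) and Gm23928 (-1.54, adjusted p = 0.00563 for both) were lower, and in TERM stood at 0.34 (adjusted p = 0.535) and -0.38 (adjusted p = 0.239). In TERM 137 were higher and 31 lower of 894 (218 and 33 of 792 without the pools), but both splits depended on the scale: with TMM 148 were higher and 132 lower in LAR and 118 and 162 in TERM, and with DESeq2 206 and 127, and 175 and 108. Of the 74 lower snRNA entries tested in TERM, 24 had the same sign (32.43%, against 33.22% over all). Of 254 rRNA entries 13.8% were called, 0.0% higher and all 35 lower, with most calls against SCAT: 3 were lower against GAT (1 without the pools) and 111 against SCAT, and SCAT was above GAT in all 98 entries called between them. Those named were Gm24647 (-3.86) and Gm25974 (-3.10), both at low levels. Their medians were 0.197 rpm in BAT, 0.393 rpm in GAT and 2.44 rpm in SCAT, and 0.619, 0.938 and 3.44 rpm. In TERM 0.0% of the rRNA entries were called (edgeR, 8 at an unadjusted p of 0.05, and 0 by DESeq2).

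Of 936 piRNA entries 37.1% were called, 336 higher (35.9%) and 11 lower (1.18%), a split that became 149 and 70 with TMM and 87 and 82 with DESeq2. Most piRNA work concerns the germ line, and entries of this class in fat can be fragments of other RNAs that share their sequence. oocyte_piRNA3720 stood at 3311 rpm in BAT (757 to 9958), 78.7 rpm in GAT (6.06 to 977) and 288 rpm in SCAT (10.8 to 495), above both depots in 20 of 20 mice, at 4.35 ± 0.35 (adjusted p = 3.0e-17) and 2.49 in TERM (adjusted p = 5.6e-09). piR-110193 was above both in 20 mice as well, at 4.72 ± 0.41 (adjusted p = 5.5e-16) and medians of 7.07, 0.17 and 0 rpm. The lower ones, piR-5592 and piR-139205, hold identical values and were at 0 in all 20 BAT libraries, with highest values of 7.97 rpm in GAT and 3.71 rpm in SCAT. In TERM they were at -0.51 (adjusted p = 0.6) and, without the pools, at 0.0093.

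Of 4536 lncRNA entries 18.9% were called, 312 higher (6.88%) and 546 lower (12.0%), and 539 without the pools (12.7%), 283 higher and 256 lower. The larger direction turned with the scale, to 552 higher and 278 lower with TMM and 489 and 319 with DESeq2. In TERM 194 were higher and 25 lower, and 127 and 127 with the mouse as a block. 4930470O06Rik was at 98.6 rpm in BAT (11.9 to 310), 5.14 rpm in GAT (0.488 to 32.6) and 7.15 rpm in SCAT (1.06 to 25.5), above both in 19 mice, at 3.82 ± 0.35 (adjusted p = 2.1e-13) and 2.31 in TERM. Gm44257 was at 278, 70.9 and 66.7 rpm and at 2.03 ± 0.22 (adjusted p = 3.2e-10). Gm28342 (-2.43) and 1810053B23Rik (-2.38) were each below both depots in 18 mice, and in TERM stood at -0.38 (adjusted p = 0.659) and -0.51 (adjusted p = 0.488). Of the 522 lower lncRNA entries tested in TERM 481 had the same sign (92.15%, against 45.47% negative over all) and 14 were called, and of 294 higher ones 262 (89.12%, against 54.53% positive over all) and 76, where 0.474% and 3.68% of all entries were called lower and higher. Reads of lncRNA genes here are short fragments, so these values are not levels of the full transcripts.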

How the data were processed

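Total RNA was extracted on miRNeasy-96 plates, and libraries were made with the MGIEasy small RNA kit and sequenced as single reads on a BGISEQ instrument. The authors mapped reads with miRMaster to GRCm39 and miRBase; adapter and quality filters and the reference sets of the other classes are not given in the sources used here. The deposited miRNA table holds estimated counts, of which 0.79% carry a fraction and which were rounded, and the tables of the other 6 classes (tRNA, rRNA, snRNA, snoRNA, piRNA and lncRNA) that the authors deposited hold whole-number counts. The 566 columns of the other samples in each of those 6 were not used, and tables of further classes were not used here. No molecular identifiers are reported, so counting precision covers counting error only.

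Entries with at least 5 counts in 10% of the libraries of any tissue and arm were tested with edgeR's quasi-likelihood test (edgeR 4.0.16, R 4.3.3) on tissue by arm, with the class total as library size; standard errors are the log2 difference over the root of F. Levels use a pseudocount of 1 rpm on the log2 scale. Shares were compared by permutation (100000 resamples, SciPy 1.17.1). Alternatives were TMM, the total of 7 classes, DESeq2 1.42.0, ranks, no filter, filtering by expression, plate terms, the mouse as a block and leaving out 11 pools, which the rule for the comparison named as tissue mix-ups. Named miRNAs were the brown adipocyte list and the 10 higher and 10 lower with the smallest adjusted p in LAR, called with and without the pools and over 1 on the log2 scale; 2 of each direction were named in other classes, and other list members by mean level. The comparison, its members and the lists were chosen with earlier results of these data known. Same-numbered libraries of an arm and timeline come from the same mouse by their labels; over 413 miRNAs the median correlation of their deviations ranged from -0.001 to 0.141. Each tissue of a mouse is 1 library. The main test did not pair the libraries of a mouse and treated them as independent. Its p-values thus measure the spread between libraries of a group, not that of the difference within mice. With the mouse as a block, miRNA calls were 251 against 335 in LAR and 177 against 250 in TERM. On simulated data for the 985 miRNAs so drawn in LAR, 51.6% of changes of 1 and 92.3% of changes of 2 on the log2 scale were recovered, and 7.09% of calls were false.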

Additional observations from a re-analysis of the deposited data

Results flagged for a closer look

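The level of each named miRNA was examined within each group of 10 libraries for a sample set apart from the other 9 by more of the range than Dixon's 95% critical value. Of 396 groups 46 held such a sample, where chance gives about 1 in 20, and 34 of the 46 samples lay in the 11 pools and 12 outside them. Values below are in rpm of the miRNA total.

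In BAT, TERM HGC mouse 16, which resembled kidney, stood low for miR-193b-3p (126.9), miR-193b-5p (2.367) and miR-3065-5p (0.4733) and apart for miR-203-3p (630.5), miR-32-5p (228.6), miR-196b-5p (7814) and miR-196a-5p (3426). TERM VGC mouse 13, which resembled spleen, stood low for miR-182-5p (9.553), miR-183-5p (5.065) and miR-203-3p (104.9). TERM VGC mouse 12, which resembled GAT, stood high for miR-5128 (38.48), and TERM HGC mouse 13, in the pools as well, for miR-193a-3p (10080). Outside the pools, LAR HGC mouse 16 stood high for miR-5128 (34.08), TERM HGC mouse 1, which resembled SCAT, high for miR-125b-1-3p (150.6) and LAR VGC mouse 2 low for miR-30e-3p (191.8).

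In GAT, LAR HGC mouse 14, which resembled thymus, stood low for miR-193b-3p (186.4) and miR-193a-5p (71.4), LAR VGC mouse 1, which resembled pancreas, low for miR-30c-1-3p (13.47) and miR-130a-5p (3.367), and TERM HGC mouse 4, which resembled thymus, apart for miR-193b-5p (5.249) and miR-130a-3p (4515). Outside the pools, TERM mice stood high for miR-193a-5p (VGC mouse 3, 1573), miR-378a-3p (HGC mouse 3, 151300) and miR-182-3p (VGC mouse 4, 1.157), and TERM VGC mouse 16 apart for miR-455-3p (677.6).

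In SCAT, LAR VGC mouse 12, which resembled spleen, stood apart for miR-193b-3p (72.18), miR-365-3p (243.6), miR-378a-5p (18.04), miR-203-3p (162.4), miR-32-5p (209.3) and miR-30c-1-3p (16.24), and TERM VGC mouse 2, also like spleen, for miR-365-3p (429.1), miR-182-5p (31.76) and miR-130a-3p (1377). TERM HGC mouse 11, which resembled BAT, stood low for miR-130a-3p (911), miR-196b-5p (20.46) and miR-125b-1-3p (19.06). LAR HGC mouse 16, which resembled diaphragm, stood low for miR-455-3p (34.53) and at 0 for miR-7653-5p, LAR HGC mouse 11, also like diaphragm, low for miR-196b-5p (29.97), and TERM VGC mouse 12, which resembled lung, low for miR-378c (394.8). Outside the pools, the values were 492.9 for miR-193a-5p (TERM HGC mouse 16), 242500 for miR-378a-3p (LAR HGC mouse 2), 85.5 for miR-30e-3p (LAR VGC mouse 3), and, in TERM VGC mouse 11, 119.5 for miR-574-5p and 663.8 for miR-501-3p.

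Tests of a difference between contrasts passed as follows, all on the log2 scale by edgeR. BAT against white fat differed between HGC and VGC in LAR for miR-12185-3p (2.98 more in HGC) and, with smaller values in HGC, for miR-18b-3p (-6.33), miR-34b-5p (-2.54), miR-34c-5p (-3.002), miR-363-3p (-4.29) and miR-449a-5p (-2.90), each at adjusted p = 0.0496, and for 0 miRNAs without the pools (121 at an unadjusted p of 0.05). Between LAR and TERM it differed for miR-196a-5p (-5.47, adjusted p = 4.9e-05), miR-196a-2-3p (-4.39, adjusted p = 0.00146), miR-196b-5p (-2.95, adjusted p = 0.00146) and miR-5128 (-1.88, adjusted p = 0.0218), and without the pools for miR-196b-5p (-1.88, adjusted p = 0.0388) and miR-206-3p (-2.32, adjusted p = 0.0388).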

How the results depend on the processing

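Over 119 results, 776 of 874 alternative values kept their direction and their side of the threshold, or a count within 1.5 times; 46 single results passed that had not, and 13 no longer passed. With scaling to the total of the 7 classes, LAR differences of named miRNAs turned for miR-125b-1-3p (0.0907), miR-130a-5p (0.22), miR-193a-5p (1.16), miR-501-3p (0.0291) and miR-574-5p (0.13). Differences of other miRNAs turned as well, among them miR-103-3p and miR-214-3p as given above. The TERM difference turned for miR-501-3p (0.11). The miRNA counts became 706 in LAR and 441 in TERM, 97.9% and 98.2% of them higher, since the median miRNA moved to 1.20 and 0.71. With TMM 60.7% of the LAR and 72.4% of the TERM calls were higher, against 32.2% and 49.2% on the class total (medians 0.05 and 0.18), and with DESeq2 58.8% and 71.5%. In TERM miR-196a-5p turned from 0.06 to -3.35 by ranks, -3.58 with plate terms, -5.27 without the pools and -5.30 without the pools and with the mouse as block.

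The mouse as a replicate block gave 251 LAR miRNA calls (73 higher, 178 lower; 267 without the pools) and 177 in TERM, moved miR-196a-5p in TERM to -3.78, changed the LAR counts to 125 for tRNA and 258 for snRNA entries, and brought miR-196b-5p and miR-5128 past the threshold in TERM. The TERM lncRNA split went from 194 higher and 25 lower to 127 and 127, and the TERM miRNA split from 123 and 127 to 53 and 124. It changed no other call of the 116 values recomputed with it.

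Other counts moved by more than 1.5 times as follows, where the cause was not tested. Without the pools, LAR calls were 297 for tRNA, 92 for rRNA, 40 for snRNA and 539 for lncRNA entries, TERM calls 1 for rRNA and 431 for lncRNA entries (268 higher and 163 lower), miRNA calls between SCAT and GAT in LAR 112 against 72, and differences between arms and between LAR and TERM 0 and 2. By DESeq2, LAR calls were 187 for tRNA, 22 for rRNA, 333 for snRNA and 169 for piRNA entries, and TERM calls 283 for snRNA, 130 for piRNA and 538 for lncRNA entries. With TMM, LAR calls were 157 for tRNA, 280 for snRNA and 219 for piRNA entries, and TERM calls 280 for snRNA, 194 for piRNA and 497 for lncRNA entries. Without the filter, rRNA calls in LAR were 23 and piRNA calls in TERM 257, and by ranks miRNA calls in TERM were 153. In LAR the direction split moved as well, from 26 higher and 1 lower to 74 and 83 (TMM) for tRNA, from 18 and 75 to 148 and 132 for snRNA (in TERM from 137 and 31 to 118 and 162), from 336 and 11 to 149 and 70 for piRNA, from 298 and 40 to 265 and 104 for snoRNA and from 312 and 546 to 552 and 278 for lncRNA entries. The lowest LAR miRNA totals, 0.594 and 0.554 M counts in GAT and SCAT, limit what could be called among rare miRNAs there.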
